A study of Homo sapiens with 6 samples.

Results

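The genes described here encode the core machinery of programmed cell death: the BCL2 family, the apoptosome and other mitochondrial death factors, caspases, their inhibitors, and the death receptors with their adaptors. They were 42 genes taken by symbol, each found in 1 row of the 58233 gene rows of a transcriptome table, by a rule that uses no measured value, though earlier results of these data were known when they were listed. The 6 libraries came from HGC-27, an established line of undifferentiated human gastric cancer cells. In 3 libraries the cells had been transfected for 72 hours with a mixture of small interfering RNAs against STRN3, a striatin that serves as a regulatory subunit of the phosphatase PP2A and as a scaffold of STRIPAK complexes (siSTRN3). In the other 3 they had received a negative control small interfering RNA (siNC), and both groups were transfected with the same lipid reagent in the same medium with serum. The number of RNAs in the mixture and their sequences are not given in the labels. Nothing in the labels ties the 3 libraries of a group to cultures of their own. The p-values therefore cover only how far these libraries vary, part or all of which could be technical.

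Apoptosis can start at mitochondria or at the cell surface. In the mitochondrial route, BH3-only proteins relieve the anti-apoptotic BCL2 proteins of their hold on BAX and BAK1, or activate these effectors directly, and the effectors open the outer mitochondrial membrane. Cytochrome c then assembles with APAF1 into the apoptosome, which activates caspase-9, while DIABLO and HTRA2 leave the same compartment and bind inhibitor of apoptosis proteins. In the other route, ligand-bound death receptors recruit FADD and caspase-8, CFLAR restrains that step, and caspase-8 can cut BID to engage the mitochondria. Much of this control acts on proteins, through cleavage, phosphorylation and binding, so a transcript level says nothing of whether the pathway was active.

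Expression was given as TPM, a level scaled for transcript length and for the total of the library, and the number of reads behind it is unknown. Nuclear protein-coding rows held 45.8% ± 0.485 of all TPM in the libraries labelled siSTRN3 and 68.4% ± 0.424 in siNC libraries (SD, n = 3 each), while 3 rows of the small ribosomal RNA named RNA5-8S5 held 21.9% ± 0.360 in siSTRN3 and 8.49% ± 0.327 in siNC. As deposited, the median log2 fold change of all tested rows, fitted on log2(TPM + 1), was -0.565 in siSTRN3 over siNC. The part of the ribosomal rows in this shift was not tested. The tests below compare each gene with the median gene, after 1 factor per library gave all libraries the same median TPM. Together, the 42 genes held 0.0560% ± 0.00110 of all TPM in siSTRN3 against 0.0829% ± 0.00202 in siNC, and 0.122% ± 0.00139 against 0.121% ± 0.00264 of the TPM of nuclear protein-coding rows. STRN3 itself went against the label: it had 4.76, 5.0 and 5.56 TPM in the libraries labelled siSTRN3 and 3.51, 5.30 and 3.85 TPM in siNC libraries, and was higher by 0.77 ± 0.13 (SE) on the log2 scale relative to the median gene (limma adjusted p = 0.00894). An exact two-sided permutation test gave p = 0.3 for its deposited TPM and p = 0.1 after scaling, where 0.1 is the smallest that 3 against 3 libraries allow. Every direction below is therefore that of libraries labelled siSTRN3 and not of a measured loss of STRN3. Whether labels or columns were exchanged between the groups, which would turn every direction, was not tested. None of 5 epithelial markers (EPCAM, KRT8, KRT18, KRT19, CDH1) averaged 1 TPM, with a summed level of 0.96 to 1.42 TPM in siSTRN3 and 1.32 to 1.93 TPM in siNC, and the 5 gastric markers summed to at most 0.09 TPM in siSTRN3 and 0.07 TPM in siNC. MUC5AC, TFF1, TFF2 and GKN1 were listed at 0 in every library. All 3 fibroblast markers (COL1A1, DCN, PDGFRB) averaged above that level, summing to 181 to 189 TPM in siSTRN3 and 285 to 298 TPM in siNC. PDGFRB was close to it, at 0.82 to 1.28 TPM in siSTRN3 and 0.96 to 1.44 TPM in siNC, so COL1A1 and DCN made up nearly all of the sum. Relative to the median gene COL1A1 was higher by 0.44 (-0.21 as deposited) and DCN lower by -0.46 (both limma adjusted p = 0.0019), PDGFRB differed by 0.28 without passing, and the part of these markers in the results below was not tested. In bulk RNA, fewer cells that express a gene and less of its RNA per cell cannot be told apart.

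Relative to the median gene, 5 of the death genes were higher in siSTRN3 and 3 were lower. The higher ones were MCL1, BOK, BID, BAD and TNFRSF10B, all of which had a negative log2 fold change on the scale as deposited, and the lower ones were BCL2L13, HTRA2 and CASP6, which were lower on both scales. The changes were small, between 1.13-fold and 1.40-fold. These folds, here and below, were fitted after 1 TPM was added to each scaled level. They are therefore smaller than the ratios of the scaled levels, most of all for low genes such as BOK. Of the 42 genes, 36 passed the filter of at least 1 TPM in at least 3 libraries, and the 8 called among them, 22.2%, compare with 21.3% of all 13004 tested rows. Higher calls made up 13.9% of the 36 genes and 11.0% of all rows, and lower calls made up 8.33% and 10.4%. These shares lie near the background, so the set as a whole did not stand apart from the transcriptome in how many of its genes were called. Its median log2 fold change was 0.05 and that of all tested rows was -0.0063, and the median size of change, whatever the direction, was 0.17 and 0.16 on the log2 scale.

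The count depended on the scale and on single libraries. Without scaling, none of the 36 genes was higher and 28 (77.8%) were lower in siSTRN3, where 1.01% of all rows were called higher and 80.8% lower. Over the whole table, 1424 rows were higher and 1348 lower relative to the median gene, against 1080 higher and 1982 lower with TPM recomputed over protein-coding rows, where 4 of the death genes were called in each direction and 9.68% and 17.8% of the 11152 rows tested, and 591 higher and 2002 lower with no filter on low values. The 5 higher calls became 3 without siSTRN3 replicate 2 or without any 1 of siNC replicates 1, 2 and 3, which is 8.33% of the 36 genes, where the higher calls over all rows dropped as well, to 7.61%, 6.04%, 6.34% and 6.47% in these fits. All calls together became 5 without siNC replicate 1 or without siNC replicate 2, which is 13.9% of the 36 genes, where 11.4% and 11.8% of all rows were called.

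Levels differed far more between these genes than between the conditions. CYCS, which encodes cytochrome c, was the most abundant of the 42, with 112 ± 7.71 TPM in siSTRN3 and 169 ± 11.1 TPM in siNC (SD, n = 3 each). Rows of its processed copies, named CYCSP, summed to 0 to 4.13 TPM in siSTRN3 and 0 to 3.31 TPM in siNC. BID followed among the BH3-only genes, BAX among the effectors, MCL1 among the anti-apoptotic genes and AIFM1 among the mitochondrial factors, all above 29 TPM in every library. At the other end, BCL2A1, an anti-apoptotic gene, and TNFRSF10D, a decoy receptor for the ligand TRAIL, were listed at 0 in every library. BIRC3, an inhibitor of apoptosis gene, did not exceed 0.01 TPM in siSTRN3 or 0.05 TPM in siNC. BIK, HRK and CASP10 stayed under 1 TPM, which completes the 6 genes not tested. In mean TPM as deposited, 39 of the 42 genes were lower in siSTRN3. The exceptions were the pair listed at 0 and XIAP. Most of the table moved the same way on that scale: 80.8% of all tested rows were called lower, and their median log2 fold change was -0.565.

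**Figure D1:**
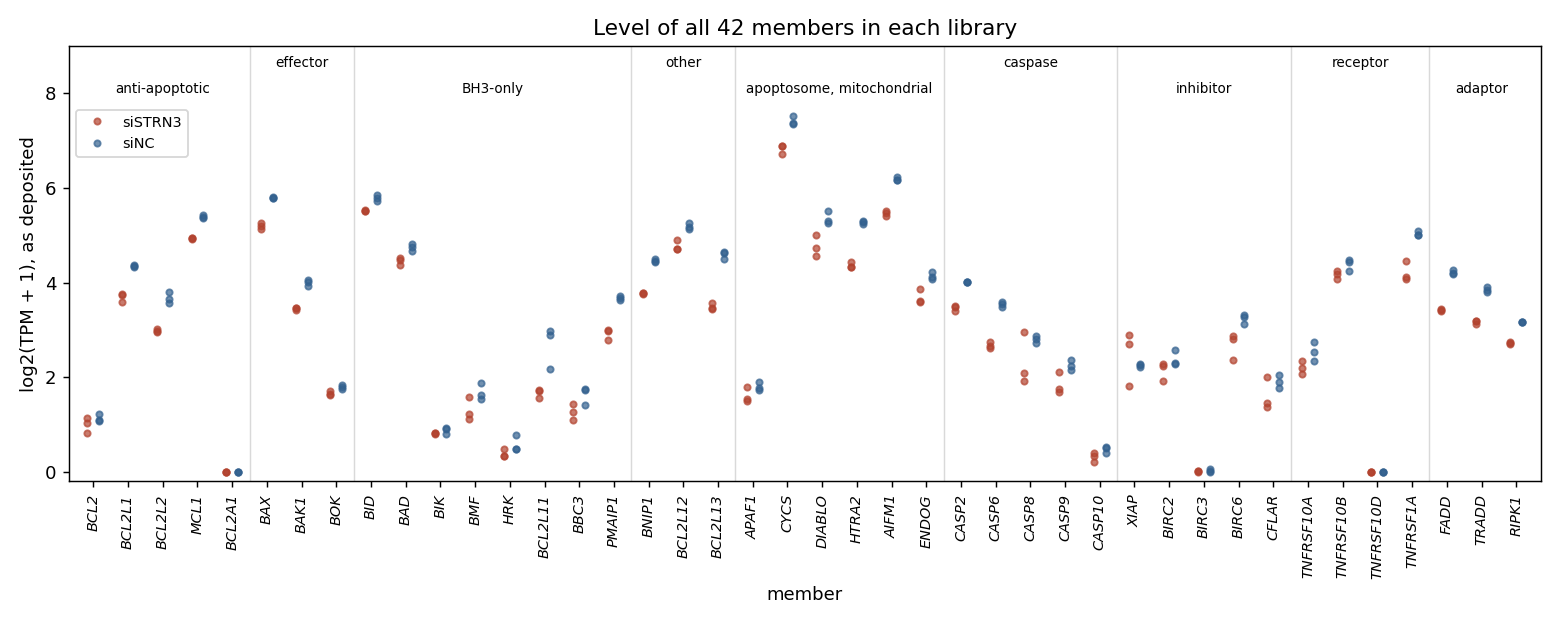
Level of the 42 death genes as log2(TPM + 1) on the deposited scale, by gene and role, with 1 point per library (3 siSTRN3 in red, 3 siNC in blue); "other" marks other BCL2-related genes. Most siSTRN3 points lie below the siNC points of the same gene, as did 80.8% of all tested rows by the test on this scale, and CYCS is highest while BCL2A1 and TNFRSF10D are at 0.

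Among the anti-apoptotic genes, MCL1 dominated and was the one called. Its protein is short-lived and holds BAK1 and BH3-only proteins in check. MCL1 (chr1:150574551-150579738, GRCh38, minus strand) had 29.50, 29.84 and 29.62 TPM in siSTRN3 and 40.98, 42.23 and 40.41 TPM in siNC. All siSTRN3 libraries were lower as deposited, yet they fell by less than the median gene, so that after scaling they stood at 36.87, 37.90 and 36.71 against 32.77, 33.32 and 32.54 in siNC, with no overlap. MCL1 was thus 1.13-fold higher relative to the median gene, a log2 fold change of 0.17 ± 0.035 (limma adjusted p = 0.018), and lower as deposited, by -0.46. The call was not held with adjusted p = 0.05 without siSTRN3 replicate 2 (just over the threshold before rounding), 0.0661 without siNC replicate 1, 0.0516 without siNC replicate 2 and 0.0625 without siNC replicate 3. It was also lost with TPM over protein-coding rows, at 0.12 (limma adjusted p = 0.0511), and with no filter on low values, at 0.07 (limma adjusted p = 0.176). BCL2L1, which encodes BCL-XL, was next in level with 10.98 to 12.59 TPM in siSTRN3 and 19.10 to 19.75 TPM in siNC, and its difference from the median gene was -0.05 ± 0.064; ABALON covers 43% of its exon bases on the opposite strand, at a mean of 0.4 TPM. BCL2L2 had 6.77 to 7.10 TPM in siSTRN3 and 10.94 to 13.05 TPM in siNC and a difference of -0.11 ± 0.078. On the same strand, 19.4% of its exon bases are shared with the read-through gene BCL2L2-PABPN1, so its reads could have been split. BCL2L2-PABPN1 was far more abundant, at 41.21 to 45.14 TPM in siSTRN3 and 75.99 to 88.89 TPM in siNC. Its difference from the median gene was -0.22 (limma adjusted p = 0.0579). BCL2, the founding member of the family, was near the filter of 1 TPM, at 0.77 to 1.21 TPM in siSTRN3 and 1.11 to 1.33 TPM in siNC.

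Of the 3 pore-forming effectors, BOK was called and BAX and BAK1 were not. BAX had 37.43, 35.74 and 34.05 TPM in siSTRN3 against 55.40, 53.97 and 54.13 TPM in siNC, and its difference from the median gene was 0.04 ± 0.047 on the log2 scale (limma adjusted p = 0.579). BAK1 had 9.74 to 10.09 TPM in siSTRN3 and 14.33 to 15.70 TPM in siNC, with a difference of 0.05 ± 0.058 (limma adjusted p = 0.597). BOK, the BAX-like gene least held back by the anti-apoptotic proteins, was far less abundant. BOK (chr2:241551424-241574138, plus strand) had 2.28, 2.12 and 2.09 TPM in siSTRN3 and 2.47, 2.37 and 2.6 TPM in siNC. Its scaled levels of 2.59 to 2.85 in siSTRN3 did not overlap the 1.87 to 2.09 of siNC, a log2 fold change of 0.32 ± 0.083 (limma adjusted p = 0.0386), while as deposited it was lower, by -0.14, and not called (adjusted p = 0.158). The call was lost without each of the 6 libraries in turn, with adjusted p between 0.0636 without siSTRN3 replicate 3 and 0.12 without siNC replicate 2, and with no filter on low values (limma adjusted p = 0.186).

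The BH3-only genes, the sensors that start the mitochondrial route, held 2 of the 8 calls and the widest range. BID and BAD were higher relative to the median gene and lower as deposited, 4 genes (BMF, BCL2L11, BBC3, PMAIP1) did not pass, and BIK and HRK were too low to test. BID (chr22:17734138-17774770, minus strand), whose protein links the death receptors to mitochondria, had 44.36, 44.64 and 45.67 TPM in siSTRN3 and 53.99, 56.36 and 51.74 TPM in siNC. After scaling, the siSTRN3 libraries stood at 55.45 to 56.70 and the siNC libraries at 41.66 to 44.47, without overlap. Relative to the median gene BID was 1.30-fold higher (a log2 value of 0.38 ± 0.037, limma adjusted p = 0.00159) and lower by -0.26 as deposited, and it was called without each library in turn, with adjusted p of at most 0.0112. BAD (chr11:64269830-64284704, minus strand), a sensitizer whose binding to BCL-XL is governed by phosphorylation, had 21.82, 19.69 and 21.32 TPM in siSTRN3 and 26.99, 25.95 and 24.31 TPM in siNC. Its scaled levels of 25.0 to 27.3 in siSTRN3 lay above the 19.6 to 21.6 of siNC. The log2 fold change was 0.34 ± 0.055 (limma adjusted p = 0.00836; -0.29 as deposited), and adjusted p was at most 0.0339 without any 1 library. Of the exon bases of BAD, 23.7% lie on the opposite strand within exons of GPR137, and since the strand setting of the counting is not given in the sources used here, reads of these genes could be mixed. GPR137 had 11.59 to 14.35 TPM in siSTRN3 and 23.16 to 24.50 TPM in siNC, and its difference from the median gene was -0.24 (limma adjusted p = 0.0835).

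The 300-base windows at the RefSeq starts of BID, BAD and BCL2L13 (GRCh38.p14, 250 bases before to 50 after the start) are shown. BID and BAD moved up and BCL2L13 down relative to the median gene, in calls that held without each library in turn. The call of TNFRSF10B held in the same way, and no window of it is shown. Each window shown is the first listed for its gene, of 5 for BID, 2 for BAD and 3 for BCL2L13. Those of BID and BCL2L13 lie inside the GENCODE gene bodies. Capitals mark the GC box letters GGGCGG on either strand, which read CCGCCC on the other. The windows are chr22:17774420-17774719 on the minus strand for BID, chr11:64284655-64284954 on the minus strand for BAD, and chr22:17638334-17638633 on the plus strand for BCL2L13.
BID: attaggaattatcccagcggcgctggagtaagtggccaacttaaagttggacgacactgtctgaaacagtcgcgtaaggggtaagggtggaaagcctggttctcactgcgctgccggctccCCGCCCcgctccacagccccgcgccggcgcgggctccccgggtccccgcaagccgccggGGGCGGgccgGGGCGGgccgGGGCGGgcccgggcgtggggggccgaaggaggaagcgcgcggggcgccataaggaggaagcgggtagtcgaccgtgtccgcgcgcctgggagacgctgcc
BAD: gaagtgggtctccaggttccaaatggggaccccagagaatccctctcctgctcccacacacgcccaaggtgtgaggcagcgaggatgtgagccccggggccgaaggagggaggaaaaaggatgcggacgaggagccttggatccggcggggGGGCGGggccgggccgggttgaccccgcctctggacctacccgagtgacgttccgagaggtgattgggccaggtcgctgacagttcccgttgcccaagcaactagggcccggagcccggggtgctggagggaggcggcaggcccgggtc
BCL2L13: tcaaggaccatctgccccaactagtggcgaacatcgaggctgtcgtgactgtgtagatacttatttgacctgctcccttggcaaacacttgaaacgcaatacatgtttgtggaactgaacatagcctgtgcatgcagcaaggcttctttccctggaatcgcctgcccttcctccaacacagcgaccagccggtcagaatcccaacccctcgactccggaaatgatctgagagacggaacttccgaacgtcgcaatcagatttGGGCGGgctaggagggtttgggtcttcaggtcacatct
BID held 4 copies of these letters in a window of 71.7% G and C, BAD held 1 in 68.3%, and BCL2L13 held 1 in 52.7%. RefSeq windows were found for 34 of the 42 genes, 61 windows in all. GGGCGG stood in 63.9% of them and in 45% of all 35116 windows, and the median G and C content was 64.7% and 58.7%. CCAAT was present in 31.1% of the windows of these genes and 34.6% of all windows, TATAAA in 6.56% and 11.5%, and CACGTG in 9.84% and 7.26%, each read on both strands. TGACTCA, read in the same way, stood in 6.56% and 4.95%, at BBC3, BCL2L13 and CASP8 among these genes. The BCL2L13 window shown does not hold it. GGAATG, the core letters bound by TEAD factors, which work with the Hippo pathway's YAP, stood in 4.92% of the windows of these genes, at BBC3, CASP9 and RIPK1, and in 14% of all windows. Letters present in a window are not evidence that a factor bound there.

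The BH3-only genes that did not pass included the one with the widest difference. BCL2L11, which encodes BIM and binds all the anti-apoptotic proteins, had 2.30, 2.25 and 1.96 TPM in siSTRN3 and 6.92, 6.47 and 3.49 TPM in siNC. As deposited the groups did not overlap, but after scaling siNC replicate 3, at 2.81, fell within the 2.43 to 2.88 of siSTRN3. The log2 fold change of -0.52 ± 0.21 did not pass (limma adjusted p = 0.119), and without siNC replicate 3 it was -0.76 ± 0.10 (adjusted p = 0.0134). On the opposite strand, MIR4435-2HG overlaps 10.9% of the exon bases of BCL2L11. Its mean over all libraries was 7.5 TPM, and that of BCL2L11 was 3.9 TPM. How far reads of MIR4435-2HG entered the level of BCL2L11 was not tested. PMAIP1, which encodes NOXA, a partner of MCL1 and target of p53, had 5.92 to 7.0 TPM in siSTRN3 and 11.39 to 12.08 TPM in siNC and a difference of -0.17 ± 0.079 from the median gene (limma adjusted p = 0.175). BBC3, which encodes PUMA, had 1.15 to 1.71 TPM in siSTRN3 and 1.65 to 2.35 TPM in siNC, and BMF had 1.16 to 1.99 TPM and 1.93 to 2.67 TPM. Their differences from the median gene, 0.06 ± 0.14 and 0.04 ± 0.15, were smaller than their errors.

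**Figure D2:**
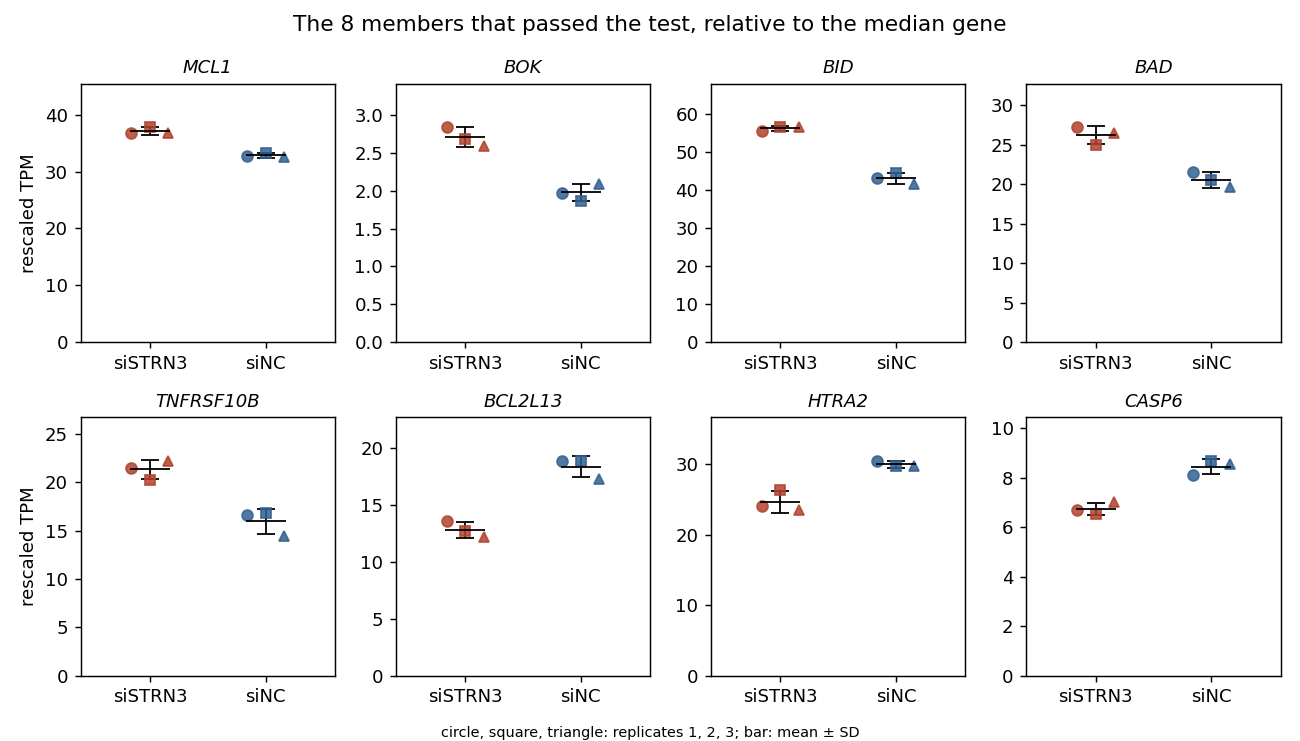
TPM of the 8 called genes after scaling each library to the same median gene, with 1 point per library (circle, square and triangle for replicates 1, 2 and 3), and bars for the mean ± SD of 3 siSTRN3 libraries on the left and 3 siNC libraries on the right of each panel. The siSTRN3 points of MCL1, BOK, BID, BAD and TNFRSF10B lie above those of siNC on this scale, where the deposited means lie below, and those of BCL2L13, HTRA2 and CASP6 lie below.

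Among the other BCL2-related genes, BCL2L13 fell and its neighbour BID moved the other way relative to the median gene. BCL2L13 encodes an outer mitochondrial membrane protein known as a receptor for mitophagy as well as for its part in apoptosis. BCL2L13 (chr22:17628855-17730855, plus strand) had 10.90, 10.00 and 9.84 TPM in siSTRN3 and 23.67, 23.95 and 21.55 TPM in siNC. The siSTRN3 libraries lay below siNC on the deposited scale and at 12.2 to 13.6 against 17.4 to 18.9 after scaling. The log2 fold change was -0.49 ± 0.062 relative to the median gene, 1.40-fold lower (limma adjusted p = 0.00365), and -1.10 as deposited, and adjusted p was at most 0.0212 without any 1 library. The 3' ends of BCL2L13 and BID face each other 3282 bases apart in GENCODE release 29. Within a library the ratio of BID to BCL2L13, a pair set side by side after their opposite calls were seen, was 4.07, 4.46 and 4.64 in siSTRN3 and 2.28, 2.35 and 2.40 in siNC. BCL2L12 had 25.19 to 28.91 TPM in siSTRN3 and 34.01 to 37.17 TPM in siNC, with a difference of 0.22 ± 0.068 from the median gene that did not pass (limma adjusted p = 0.0616); 33.1% of its exon bases overlap IRF3 on the opposite strand. BNIP1, a SNARE protein of the endoplasmic reticulum, had 12.61 to 12.82 TPM in siSTRN3 and 20.76 to 21.70 TPM in siNC and a difference of -0.08 ± 0.043 (limma adjusted p = 0.222).

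The balance between pro-death and anti-apoptotic transcripts can be read within each library, where scaling cancels. Summed TPM of the BH3-only genes was 78.5, 77.0 and 80.3 in siSTRN3 and 105.6, 106.5 and 96.6 in siNC, and that of the anti-apoptotic genes was 48.5, 50.4 and 49.8 in siSTRN3 and 74.6, 73.4 and 73.1 in siNC. Both sums were lower in siSTRN3 as deposited, the anti-apoptotic one by the larger share. The ratio of BH3-only to anti-apoptotic TPM was 1.62, 1.53 and 1.61 in siSTRN3 and 1.41, 1.45 and 1.32 in siNC, without overlap. The ratio of effectors to anti-apoptotic genes overlapped, at 0.966 ± 0.0549 in siSTRN3 and 0.978 ± 0.0126 in siNC (SD, n = 3 each). BH3-only genes and effectors together stood at 2.55 ± 0.0869 times the anti-apoptotic sum in siSTRN3 and 2.37 ± 0.0585 times in siNC, a difference of 0.180. These sums weigh the abundant genes most and are given without a test. Groups without overlap were common, as in the scaled levels of 42.4% of all tested rows. The anti-apoptotic sum does not include BCL2L2-PABPN1. Without BID, the BH3-only ratio was 0.642 to 0.704 in siSTRN3 and 0.614 to 0.691 in siNC, and without BID and BAD the whole pro-death ratio was 1.19 to 1.28 in siSTRN3 and 1.26 to 1.31 in siNC. BID and BAD are the BH3-only genes called higher relative to the median gene (lower as deposited), so leaving them out lowers the ratio by construction, and its mean was then lower in siSTRN3 than in siNC, by -0.0668, with overlap.

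Within the families, some shares differed between the groups and others overlapped. MCL1 made up 59.9% ± 0.904 of the anti-apoptotic TPM in siSTRN3 and 55.9% ± 1.43 in siNC, BCL2L1 made up 24.1% ± 1.34 in siSTRN3 and 26.4% ± 0.565 in siNC, and BCL2L2 made up 14% ± 0.355 in siSTRN3 and 16.1% ± 1.30 in siNC. These 3 shares did not overlap between the groups, and that of BCL2 did, at 2.03% ± 0.437 in siSTRN3 and 1.63% ± 0.170 in siNC. BID made up 57.1% ± 0.742 of the BH3-only TPM in siSTRN3 and 52.5% ± 1.26 in siNC, whereas PMAIP1 made up 8.40% ± 0.787 in siSTRN3 and 11.5% ± 0.789 in siNC. BCL2L11 made up 2.44% to 2.93% in siSTRN3 and 3.61% to 6.56% in siNC, and the shares of BAD overlapped, at 26.6% ± 1.12 in siSTRN3 and 25% ± 0.606 in siNC. Shares of 1 sum are tied to each other and are given without a test. Separation of the groups was common, as the scaled levels of 42.4% of all tested rows did not overlap. Reads of BCL2L2 that were counted to BCL2L2-PABPN1 would be missing from the anti-apoptotic sum. The share of BAX among the effectors was 74.7% ± 0.473 in siSTRN3 and 75.6% ± 0.624 in siNC. It did not overlap either, at 74.2% to 75.2% in siSTRN3 and 75.3% to 76.4% in siNC.

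**Figure D3:**
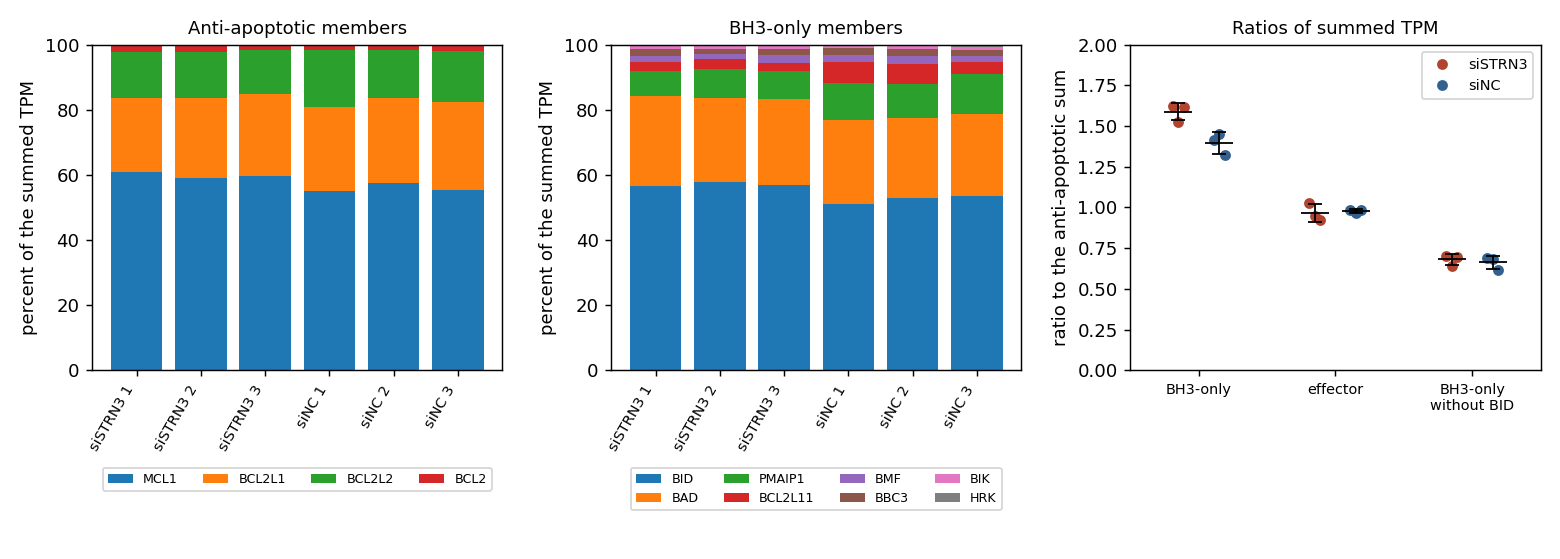
Percent of the summed TPM taken by each anti-apoptotic gene (left) and BH3-only gene (middle) in 3 siSTRN3 and 3 siNC libraries, and the ratio of role sums to the anti-apoptotic sum (right; points are libraries, bars the mean ± SD). The ratio of BH3-only to anti-apoptotic TPM is 1.53 to 1.62 in siSTRN3 and 1.32 to 1.45 in siNC, and the effector ratio overlaps between the groups.

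Of the apoptosome and mitochondrial factors, HTRA2 fell and the other 5 did not pass. HTRA2, a serine protease of the intermembrane space that binds and cuts inhibitor of apoptosis proteins once released, lies at chr2:74529377-74533348 on the plus strand. It had 19.24, 20.78 and 19.00 TPM in siSTRN3 and 38.16, 37.71 and 36.86 TPM in siNC, with no overlap before or after scaling. The log2 fold change was -0.27 ± 0.052 relative to the median gene, 1.21-fold lower (limma adjusted p = 0.0142), and -0.90 as deposited, and the call was lost without siNC replicate 1 (adjusted p = 0.0564). On the opposite strand, 16.1% of its exon bases overlap AUP1, which had 58.25 to 61.97 TPM in siSTRN3 and 143 to 151 TPM in siNC and a log2 fold change of -0.63 (limma adjusted p = 2.33e-04), and 20.8% overlap LOXL3, at 1.11 to 1.28 TPM in siSTRN3 and 1.53 to 2.30 TPM in siNC. How far reads of AUP1 entered the level of HTRA2 was not tested. CYCS differed from the median gene by 0.06 ± 0.063 and APAF1, the scaffold of the apoptosome at 1.84 to 2.47 TPM in siSTRN3 and 2.30 to 2.76 TPM in siNC, by 0.26 ± 0.11 (limma adjusted p = 0.14). The DIABLO, AIFM1 and ENDOG differences were 0.03 ± 0.12, -0.09 ± 0.044 and 0.15 ± 0.087; these genes encode an antagonist of inhibitor of apoptosis proteins, a flavoprotein that can move to the nucleus, and a mitochondrial nuclease. SPOUT1 covers 39.2% of the exon bases of ENDOG on the opposite strand, at a mean of 14 TPM over all libraries.

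Of the caspases, CASP6 was called and CASP2, CASP8 and CASP9 were not. CASP6, an executioner caspase known for cutting nuclear lamins, lies at chr4:109688622-109703583 on the minus strand. It had 5.36, 5.14 and 5.66 TPM in siSTRN3 and 10.13, 11.03 and 10.65 TPM in siNC, with no overlap before or after scaling. Its log2 fold change was -0.29 ± 0.062 relative to the median gene, 1.22-fold lower (limma adjusted p = 0.0209), and -0.86 as deposited. The call was lost with adjusted p = 0.0525 without siSTRN3 replicate 1, 0.0542 without siSTRN3 replicate 2, 0.0764 without siNC replicate 2 and 0.0706 without siNC replicate 3. MCUB overlaps 5.4% of its exon bases on the opposite strand and was higher by 0.77 relative to the median gene (limma adjusted p = 0.00361), at 11.15 to 14.01 TPM in siSTRN3 and 9.95 to 11.84 TPM in siNC. CASP8, the initiator of the death receptor route, had 2.81, 3.23 and 6.71 TPM in siSTRN3 and 6.04, 6.30 and 5.60 TPM in siNC. Of its siSTRN3 libraries, 2 lay below siNC and the third above it. After scaling the siSTRN3 libraries stood at 3.51, 4.10 and 8.32, against 4.51 to 4.97 in siNC (limma adjusted p = 0.9). CASP9, the initiator of the mitochondrial route, and CASP2 differed from the median gene by 0.08 ± 0.13 and 0.06 ± 0.055.

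Of the 5 inhibitor genes, 4 were tested and none passed. XIAP, an inhibitor that binds active caspases, had 2.53, 6.44 and 5.54 TPM in siSTRN3 and 3.67, 3.77 and 3.83 TPM in siNC. As deposited, siSTRN3 replicate 1 was the lowest of the 6 libraries and the other siSTRN3 libraries were the highest, and after scaling all 3 lay above siNC. Its log2 fold change of 0.74 ± 0.28 was the largest of the set in size and did not pass (limma adjusted p = 0.104), and without siSTRN3 replicate 1 it was 1.10 ± 0.098 (adjusted p = 0.00395). BIRC2, which encodes cIAP1, had 2.80 to 3.88 TPM in siSTRN3 and 3.87 to 4.96 TPM in siNC and a difference of 0.28 ± 0.13 (limma adjusted p = 0.162). BIRC6, a giant ubiquitin-conjugating inhibitor, had 6.37, 4.12 and 6.05 TPM in siSTRN3 and 7.67, 8.72 and 9.01 TPM in siNC and a difference of 0.01 ± 0.15. CFLAR, which encodes the caspase-8 regulator FLIP, had 1.6, 3.02 and 1.75 TPM in siSTRN3 and 3.15, 2.40 and 2.75 TPM in siNC and a difference of 0.16 ± 0.20.

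**Figure D4:**
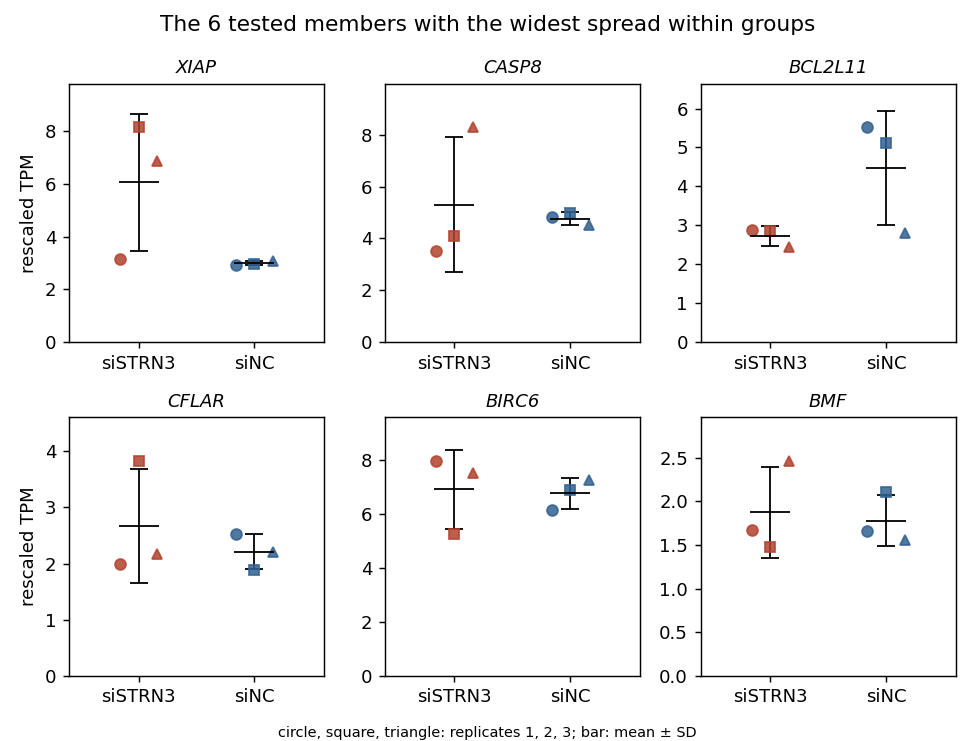
TPM after scaling to the median gene of the 6 tested genes with the widest spread within groups, with 1 point per library and bars for the mean ± SD of 3 siSTRN3 and 3 siNC libraries. In XIAP, CASP8 and CFLAR 1 siSTRN3 library is apart from the other 2, and in BCL2L11 siNC replicate 3 lies with the siSTRN3 libraries.

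The spread within groups differed widely among these genes. The median SD within groups was 0.0932 on the log2 scale for the 36 tested genes and 0.102 for all tested rows. XIAP, CASP8, BCL2L11 and CFLAR had SDs of 0.43, 0.40, 0.31 and 0.28, wider than 96.3%, 95.7%, 92.4% and 90.9% of all tested rows. The outlying library was not the same for these genes: it was siSTRN3 replicate 1 for XIAP, siSTRN3 replicate 3 for CASP8, siSTRN3 replicate 2 for CFLAR and siNC replicate 3 for BCL2L11. BNIP1, MCL1 and RIPK1 were the tightest, with SDs of 0.019, 0.021 and 0.022.

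At the cell surface, TNFRSF10B was the 1 receptor called. It encodes DR5, a death receptor for TRAIL, and lies at chr8:23020133-23069179 on the minus strand. TNFRSF10B had 17.19, 15.92 and 17.94 TPM in siSTRN3 and 20.76, 21.31 and 17.96 TPM in siNC. The deposited levels nearly met, and after scaling siSTRN3 stood at 20.2 to 22.2 against 14.5 to 16.8 in siNC. Relative to the median gene it was 1.32-fold higher (a log2 value of 0.40 ± 0.071, limma adjusted p = 0.0113) and lower by -0.22 as deposited, and adjusted p was at most 0.035 without any 1 library. With no filter on low values it was not called (limma adjusted p = 0.0535). RHOBTB2 overlaps 1.3% of its exon bases on the opposite strand. TNFRSF10A, the other signalling receptor for TRAIL, had 3.22 to 4.11 TPM in siSTRN3 and 4.11 to 5.68 TPM in siNC and a difference of 0.20 ± 0.12 (limma adjusted p = 0.302). TNFRSF1A, the main receptor for TNF, had 15.92, 20.89 and 16.33 TPM in siSTRN3 and 31.06, 33.17 and 31.09 TPM in siNC. Its log2 fold change of -0.19 ± 0.11 did not pass (limma adjusted p = 0.241), and without siSTRN3 replicate 2, the highest of its group, it was -0.32 ± 0.048 (adjusted p = 0.0146).

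No adaptor passed the test. FADD, which joins the receptors to caspase-8, had 9.52, 9.90 and 9.69 TPM in siSTRN3 and 17.42, 17.10 and 18.38 TPM in siNC. The groups did not overlap before or after scaling, and its log2 fold change of -0.20 ± 0.056 lay just outside the threshold (limma adjusted p = 0.0504). Besides the deposited scale, it was called under 4 alternatives, among them TPM over protein-coding rows (-0.25, adjusted p = 0.0177). AP000879.1 overlaps 54.9% of the exon bases of FADD on the opposite strand, at a mean of 1.39 TPM over all libraries. By sequence it matches 53.7% of the FADD transcript. How far its reads entered the level of FADD was not tested. TRADD, the adaptor of TNFRSF1A, and RIPK1, the kinase it recruits, differed from the median gene by -0.09 ± 0.053 and 0.12 ± 0.058.

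**Figure D5:**
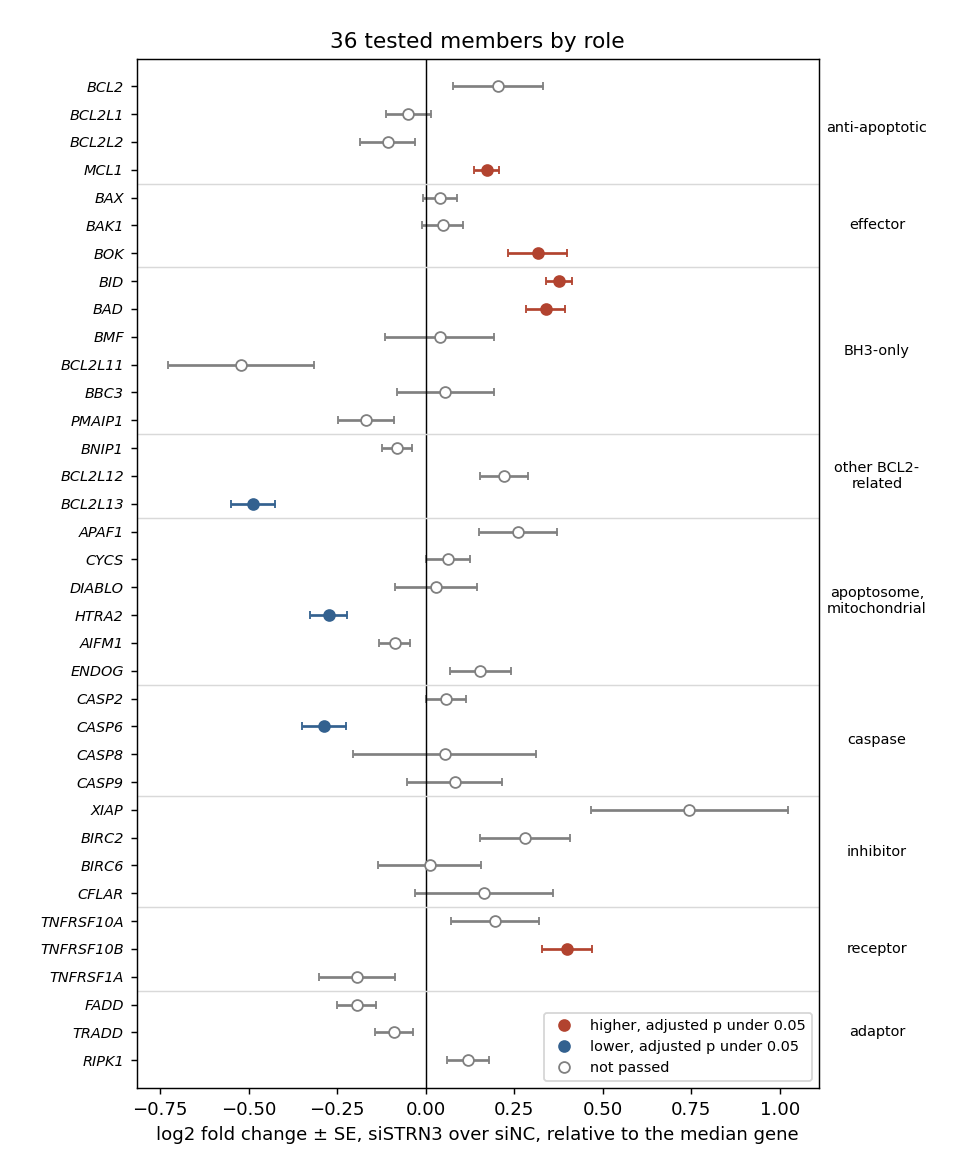
Log2 fold change ± SE of siSTRN3 over siNC relative to the median gene for the 36 tested death genes, grouped by role from 3 libraries each. Filled points passed the test: MCL1, BOK, BID, BAD and TNFRSF10B higher on this scale (lower on the deposited scale) and BCL2L13, HTRA2 and CASP6 lower, while XIAP and BCL2L11 have the widest errors of those far from 0.

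Beyond the calls, the scaled levels of 16 of the 36 tested genes (44.4%) did not overlap between the groups, 9 above and 7 below in siSTRN3, where 42.4% of all tested rows did not overlap, 20.7% above and 21.8% below. At an unadjusted p under 0.05, 12 of the 36 genes and 4774 of all 13004 rows passed. Among genes with a mean of at least 5 TPM, 9 of 25 were called, 36.0% against 29.4% of 8388 rows fitted in the same way. By role, where 21.3% of all rows were called, the calls were 1 of 4 anti-apoptotic genes, 1 of 3 effectors, 2 of 6 BH3-only genes, 1 of 3 other BCL2-related genes, 1 of 6 apoptosome and mitochondrial genes, 1 of 4 caspases, 0 of 4 inhibitors, 1 of 3 receptors and 0 of 3 adaptors.

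A wider list of 75 other genes of the pathway held 53 that were tested, of which 5 were higher (9.43%) and 9 lower (17%) relative to the median gene, where 11.0% and 10.4% of all rows were called. None of the 5 was called higher as deposited, and the higher calls fell to 3 without siNC replicate 1 and to 2 without siNC replicate 3. VDAC1, a channel of the outer mitochondrial membrane, led the higher ones with 145, 152 and 154 TPM in siSTRN3 and 154, 159 and 155 TPM in siNC, a log2 fold change of 0.59 ± 0.033 relative to the median gene (limma adjusted p = 1.89e-04) and of -0.055 as deposited (adjusted p = 0.166). BAG1, a chaperone partner that binds BCL2, BCLAF1 and BAG5 were higher by 0.42, 0.49 and 0.26 relative to the median gene and at -0.23, -0.11 and -0.34 as deposited. The BAG5 call was lost without siNC replicate 1 or 3 and the BCLAF1 call without siSTRN3 replicate 1 or siNC replicate 1 or 3, with adjusted p of at most 0.0634 and 0.0828. Among the lower ones, UNC5B, a dependence receptor for netrin, had 15.71, 15.21 and 14.53 TPM in siSTRN3 and 32.69, 33.25 and 32.62 TPM in siNC, a log2 fold change of -0.45 ± 0.047 (limma adjusted p = 0.00193). TMBIM6, the membrane protein also called BAX inhibitor 1, HUWE1, a ubiquitin ligase of MCL1, and BAG6 were lower by -0.26, -0.26 and -0.25.

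The authors' deposited table also gives a p-value for siNC against siSTRN3 for every gene, with no direction. In the authors' deposited table, 10 of the 42 genes had an adjusted p under 0.05, and 7 of them are among the 8 called here. That is 23.8% of the 42 genes, against 7.32% of all 58233 rows of the authors' deposited table, most of them under the filter, and 27.8% of the 36 tested genes, against 31.7% of the 13004 rows tested here. The authors' deposited table adds AIFM1, XIAP and TNFRSF1A, with the authors' adjusted p at 0.0144, 1.12e-05 and 4.6e-06. The limma adjusted p of these genes was 0.202, 0.104 and 0.241. It does not call CASP6, with the authors' adjusted p at 0.7 against a limma adjusted p of 0.0209, so the tests differed widely on some genes.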

How the data were processed

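Total RNA of 3 siSTRN3 and 3 siNC libraries was sequenced; the submitters' processing notes name HISAT2, Cufflinks, RSEM and the build GRCh38.p10, without roles. The labels name neither poly(A) selection nor depletion of ribosomal RNA. The authors deposited TPM per gene and library, per the file headers, and adjusted p-values of their own test, per the file headers; read counts and depth are unknown. TPM summed to 966433 to 968756 in siSTRN3 and 985805 to 987429 in siNC.

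Rows reaching 1 TPM in 3 or more libraries (13004 of 58233) were kept and multiplied by 1 factor per library that equalised their median, and log2(value + 1) was fitted with limma 3.58.1 (R 4.3.3, moderated test with trend). Benjamini-Hochberg adjustment ran over all tested rows, with calls under 0.05. Fold changes on this scale understate those of low genes. Errors of fold changes are SEs, and other errors are SDs. The code was tested on simulated data. Gene positions, types and overlaps came from GENCODE release 29. Sequence matches to transcripts of other genes came from BLAST+ 2.17.0 (at least 95% identity over at least 50% of the transcript). Windows at gene starts came from RefSeq.

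The genes, their roles and the lists were chosen with earlier results of these data known. Every gene of the set is accounted for, called ones with every library; of the wider list, up to 4 called genes per direction with the smallest adjusted p are named. Of its symbols, GSDME and SEPT4 were not matched. Alternatives covered scaling, pseudocount, filter, prior trend, replicate block and leaving out each library.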

Additional observations from a re-analysis of the deposited data

How the results depend on the processing

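On the deposited scale no death gene was higher and 28 were lower (77.8% of the 36 tested). Of the wider list 0 were higher and 45 lower (84.9% of the 53 tested). Of all rows, 1.01% were called higher and 80.8% lower, so these shares lie near the background. The log2 fold changes turned negative for MCL1 (-0.46), BOK (-0.14), BID (-0.26), BAD (-0.29), TNFRSF10B (-0.22), VDAC1 (-0.055), BAG1 (-0.23), BAG5 (-0.34) and BCLAF1 (-0.11), as that scale carries the shift of the median gene. With no filter on low values, 2 death genes were higher and 6 lower of 40 tested (20%, against 9.48% of 27360 rows, which then include the rows near 0). Of the wider list 2 were higher and 11 lower. The library factors were then also taken over these 27360 rows. Every called death gene had a lower log2 fold change than in the main fit. MCL1 went from 0.17 to 0.07, BID from 0.38 to 0.28, BCL2L13 from -0.49 to -0.58 and HTRA2 from -0.27 to -0.37. The part of the factors in the changed calls was not tested. Leaving out each library in turn called 11.4% to 16.4% of all rows, against 21.3% with all libraries, and gave 3 to 5 higher and 2 to 3 lower death genes (13.9% to 19.4% of 36), 2 to 4 higher and 6 to 9 lower genes of the wider list, and a difference in the pro-death ratio of 0.133 to 0.218, from 5 libraries each. BCL2L13 was called under all 15 alternatives, BID and BAD under all 15, in the other direction on the deposited scale, and BOK had no value with a mean of at least 5 TPM.

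Same-numbered libraries did not deviate together (r = 0.057, -0.0213 and -0.0804), and the best match of a library was not always its own number. With replicate number as a block, 3 death genes and 3 of the wider list were higher, and 13.4% of all rows were called, against 13.9% of the 36 death genes. The death genes no longer called were BOK (adjusted p = 0.1), CASP6 (0.0626) and MCL1 (0.0579).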
